A study of Rattus norvegicus with 11 samples.

Results

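The 8 genes described here make up the epithelial sodium channel of rats and the steroid axis that sets its activity. They are the channel subunits Scnn1a, Scnn1b and Scnn1g, the mineralocorticoid receptor Nr3c2, the steroid-inactivating enzyme Hsd11b2, the kinase Sgk1, the ubiquitin ligase Nedd4l and the sodium pump subunit Atp1b1. They were picked by name out of 24481 genes with group differences of these same libraries already known, and which values weighed in the choice is not recorded. Their differences between groups are therefore given as a description, with no p for any of the 8. How many of them were called in the fits across all genes is given beside the share of all genes called, and in none of the 3 comparisons is anything read from these counts. All 8 genes were found in the read counts and in the FPKM values.

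RNA of the ileum was sequenced in 3 control, 4 SAP and 4 JZL184 libraries from male SD rats 6 to 8 weeks old. In the SAP and JZL184 groups, severe acute pancreatitis (SAP) was induced with 3% sodium taurocholate in the pancreatic duct. After 24 h, control and SAP rats received the vehicle alone and JZL184 rats received JZL184, an inhibitor of the endocannabinoid-degrading enzyme MAGL, at 10 mg/kg, all by intraperitoneal injection and all in the same solvent mixture. The ileum was taken 24 h after the injection. The sources used here do not say whether control rats had sham surgery. The labels name a control plasmid for the control rats and oil for the SAP rats, where the study's methods describe vehicle. They also name intestinal epithelial cells where the source is ileum tissue.

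The channel lets sodium enter epithelial cells from the lumen, and the sodium pump then moves it out on the blood side. Aldosterone binds the mineralocorticoid receptor, which raises transcription of channel subunits, of the pump and of Sgk1, and Sgk1 keeps Nedd4l from marking the channel for removal. Hsd11b2 inactivates glucocorticoids that would otherwise occupy the same receptor. In the gut this axis is best known from the distal colon, where all channel subunits can be induced, whereas the ileum takes up sodium mainly through exchangers and cotransporters.

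Between 26341299 and 33847135 reads per library lay on genes. The first 2 control libraries were nearly identical in their counts (chi-square per gene of 2.81, against 77.5 to 563 in other pairs of one group) and were counted as 1 sample, which left n = 2 in the control group. SAP library 2 went against the stated sex: 20 of its reads fell on Uty, Kdm5d and Eif2s3y of the Y chromosome, where the other libraries had 1222 to 4665, and 7826 reads on the Xist locus, where the others had at most 56. All 8 of 8 epithelial markers were found and summed to 26744 to 27451 FPKM in control, 9979 to 20339 in SAP and 7912 to 17246 in JZL184 libraries. A few abundant genes carried this sum, and Cdh1 went the other way, at 105 to 118 FPKM in control, 132 to 166 in SAP and 151 to 194 in JZL184 libraries. The 4 of 4 ileal enterocyte markers summed to 22931 to 24362 FPKM in control, 3693 to 15414 in SAP and 1021 to 11026 in JZL184 libraries. Fabp6 made up most of this sum in control and SAP libraries and in JZL184 libraries 2 and 4. In JZL184 libraries 1 and 3 it did not, at 410 and 79.9 FPKM, where Slc51b stood at 410.47 and 881.25 FPKM. Slc10a2 did not follow the sum, at 50.94 to 82.02 FPKM in control, 49.57 to 135.8 in SAP and 4.24 to 104.45 in JZL184 libraries. Slc51a reached 515.39 FPKM in JZL184 library 4, within its control range of 505.52 to 547.29. Of 7 colon markers 5 were in the files, and their sum was 0.86 to 1.07 FPKM in control, 1.42 to 6.27 in SAP and 0.85 to 480 in JZL184 libraries. The upper value came from Car1 at 478 FPKM in JZL184 library 3, while the distal position genes Hoxb13 and Hoxd13 did not exceed 0.05 FPKM in any library. Summed FPKM in control, SAP and JZL184 libraries was 1418 to 1438, 695 to 1646 and 343 to 1724 for 5 of 5 smooth muscle markers, which were thus present beside the epithelium. For 6 of 6 leukocyte markers it was 81.0 to 85.9, 80.6 to 124 and 72.6 to 301, for 3 of 3 endothelial markers 15.5 to 17, 19.96 to 25.3 and 21.6 to 28.2, and for 4 of 4 markers of enteric glia and neurons 12.5 to 13.3, 7.05 to 14.4 and 12.9 to 22.1. The leukocyte markers did not move together. S100a8 stood at 0 to 0.63 FPKM in control, 3.56 to 39.55 in SAP and 6.33 to 148.71 in JZL184 libraries. In the same order, Cd79a stood at 50.84 to 62.72, 5.94 to 50.01 and 33.52 to 61.48 FPKM. Cd3e stood at 15.02 to 17.83, 4.69 to 15 and 4.68 to 12.41 FPKM. The kidney collecting duct markers Aqp2 and Avpr2 (2 of 2) were at 0 in all control and SAP libraries and at most at a sum of 0.05 in JZL184 libraries. The part that a changed mix of cells had in the results below was not tested, and in whole tissue fewer cells of a type and less RNA per cell cannot be told apart.

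Scnn1b and Scnn1g lie next to each other on chromosome 1, with Scnn1b the next gene after Scnn1g in RefSeq GRCr8. Their promoters and that of Sgk1 are shown because these genes had wide differences between groups. Promoter windows of 300 bases were at hand for 4 of the 8 genes (Scnn1b, Scnn1g, Nedd4l and Sgk1, the last with 3 start sites), and the build, RefSeq GRCr8, is not the build of the files. The capitals mark GGCGGG or its reverse complement in the channel genes and TATAAA in Sgk1, counted back from the start to the first capital letter, in stretches of 30 bases on the strand of the gene.
Scnn1g, chr1:185736131-185736160, plus strand, 82 bases before the start: ggaaactctaggGGCGGGgcttgagcctga
Scnn1b, chr1:185861284-185861313, plus strand, 80 bases before the start: tcccggttggtcCCCGCCccccgcgctccc
Sgk1, chr1:24804847-24804876, minus strand, 33 bases before the start: aggctcagggctTATAAAgtcggtcgcaga
Sgk1, chr1:24807269-24807298, minus strand, 55 bases before the start: attccctttagaTATAAAgcgggactcgga
The letters GGCGGG, searched on both strands and with overlapping matches allowed, were found in 5 of the 6 windows, against 32% of 33469 windows of all genes. The windows of Scnn1g and Scnn1b had a GC content of 65.0% and 62.7%, where the median of all windows was 51.7%. TATAAA, searched on the strand of the gene, was found in 2 of the 6 windows, both of Sgk1, and in 8.8% of all windows. The steroid receptor motif TGTTCT, searched on both strands, was found in 0 of the 6 windows and in 20.7% of all windows. A match or its absence describes these letters in these windows only.

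The channel subunits Scnn1b and Scnn1g were close to 0 in the control ileum and clearly present in the ileum of SAP rats. Scnn1b, the beta subunit needed for full channel activity, had 8, 2 and 5 reads in control libraries 1 to 3, 101, 70, 73 and 98 in SAP libraries 1 to 4, and 9, 91, 56 and 61 in JZL184 libraries 1 to 4. In FPKM, a level scaled for gene length and library size, these were 0.11, 0.03 and 0.06 in control, 1.09, 0.86, 0.97 and 1.20 in SAP, and 0.11, 1.22, 0.75 and 0.85 in JZL184 libraries. Every SAP library lay above every control library, whereas JZL184 library 1 lay at the level of control library 1 and the other 3 JZL184 libraries lay near the SAP libraries. The exact Poisson 95% interval of the 9 reads of JZL184 library 1 was 4.12 to 17.1, and that of the 70 reads of SAP library 2, the lowest of its group, was 54.6 to 88.4 (both cover counting error only). Mean FPKM was 0.065 ± 0.0071 (SD, n = 2) in control rats, 1.03 ± 0.147 (SD, n = 4) in SAP rats and 0.733 ± 0.462 (SD, n = 4) in JZL184 rats. The fitted log2 fold change of the read counts was 3.78 ± 0.49 (SE) for SAP against control, 3.46 ± 1.01 for JZL184 against control and -0.29 ± 0.61 for JZL184 against SAP. Without JZL184 library 1 the last of these was 0.09, and without SAP library 2 the first was 3.90.

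Scnn1g encodes the gamma subunit. Its reads numbered 5, 6 and 4 in control, 179, 101, 57 and 119 in SAP, and 72, 405, 37 and 293 in JZL184 libraries. The FPKM values were 0.06, 0.07 and 0.04 in control, 1.62, 1.03, 0.63 and 1.22 in SAP, and 0.70, 4.55, 0.41 and 3.41 in JZL184 libraries. All SAP and all JZL184 libraries lay above all control libraries, and within the JZL184 group libraries 2 and 4 stood above every SAP library while library 3 stood below every SAP library. Fabp6 split the JZL184 group along the same lines, at 9000 and 6883 FPKM in libraries 2 and 4 and at 410 and 79.9 FPKM in libraries 1 and 3. The other groups did not show this match. In the SAP group Fabp6 was highest in library 3 (13670 FPKM), where Scnn1g was lowest. Control libraries had Fabp6 at 20506 to 21819 FPKM, with Scnn1g at 0.04 to 0.07. For Scnn1g, control rats had a mean of 0.0525 ± 0.0177 FPKM (SD, n = 2), SAP rats of 1.13 ± 0.412 (SD, n = 4) and JZL184 rats of 2.27 ± 2.03 (SD, n = 4). The log2 fold change was 4.19 ± 0.59 (SE) for SAP against control, 5.42 ± 1.28 for JZL184 against control and 1.27 ± 0.73 for JZL184 against SAP. With JZL184 libraries 2 and 4 alone, a choice made after Fabp6 had been seen, the last 2 values were 6.24 and 2.09. Without SAP library 2, SAP against control gave 4.27.

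Scnn1a, the alpha subunit of the channel, was present in every library. It stood at 0.93, 1.52 and 0.92 FPKM in control, 1.88, 3.06, 2.08 and 1.40 in SAP, and 0.60, 1.25, 3.03 and 1.15 in JZL184 libraries. The lowest SAP library lay below the highest control library, and the JZL184 libraries reached from below all control libraries to just under the highest SAP library. Mean FPKM was 1.07 ± 0.216 (SD, n = 2), 2.11 ± 0.698 (SD, n = 4) and 1.51 ± 1.05 (SD, n = 4) in control, SAP and JZL184 rats. Its log2 fold changes were 0.76 ± 0.39 (SE) for SAP against control, 0.42 ± 0.59 for JZL184 against control and -0.31 ± 0.46 for JZL184 against SAP. JZL184 against control turned to -0.09 without JZL184 library 3, the library with the highest Scnn1a of its group.

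The make-up of the channel RNA differed between the libraries. Scnn1a made up 84.5% to 93.8% of the summed FPKM of the 3 subunits in control libraries, 36.6% to 61.8% in SAP libraries and 17.8% to 72.3% in JZL184 libraries. The sum itself was 1.10, 1.62 and 1.02 FPKM in control, 4.59, 4.95, 3.68 and 3.82 in SAP, and 1.41, 7.02, 4.19 and 5.41 in JZL184 libraries. JZL184 libraries 2 and 4 were mostly Scnn1g, at 64.8% and 63.0% of the sum, library 1 was 49.6% Scnn1g, and library 3 was mostly Scnn1a, with 9.79% Scnn1g. Scnn1d, a further subunit gene, had 4 reads in JZL184 library 1, 1 read each in JZL184 library 2 and SAP library 1, and 0 reads in the other 8 libraries, each of which allows up to 3.69 reads (exact Poisson 95% interval).

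**Figure D1:**
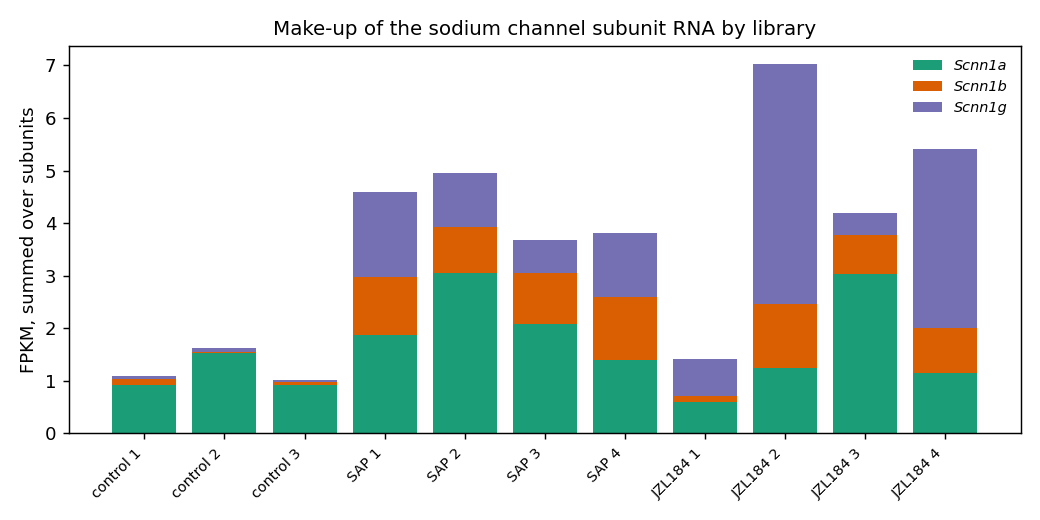
Summed FPKM of the channel subunits Scnn1a, Scnn1b and Scnn1g (vertical axis) in each of the 11 libraries (horizontal axis), with 1 colour per subunit. Control libraries held almost only Scnn1a at a sum of 1.02 to 1.62 FPKM, all SAP libraries held all 3 subunits at 3.68 to 4.95 FPKM, and JZL184 library 1 stood at 1.41 FPKM while JZL184 library 2 reached 7.02 FPKM.

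Hsd11b2, which protects the mineralocorticoid receptor from glucocorticoids, was steady in the control group and varied widely in both others. It was measured at 8.62, 8.20 and 7.72 FPKM in control, 20.11, 17.16, 37.97 and 46.80 in SAP, and 7.18, 39.54, 70.93 and 35.78 in JZL184 libraries. All SAP libraries lay above all control libraries, and JZL184 library 1 lay below them all while JZL184 library 3, which also had the high Car1, had the highest value. Mean FPKM was 8.07 ± 0.488 (SD, n = 2) in control rats, 30.5 ± 14.2 (SD, n = 4) in SAP rats and 38.4 ± 26.1 (SD, n = 4) in JZL184 rats. The log2 fold change was 1.79 ± 0.55 (SE) for SAP against control, 2.21 ± 0.76 for JZL184 against control and 0.45 ± 0.61 for JZL184 against SAP. SAP against control was 0.91 with SAP libraries 1 and 2 alone, 2.33 with SAP libraries 3 and 4 alone, and 2.01 without SAP library 2. JZL184 against SAP turned to -0.10 with SAP libraries 3 and 4 alone and was 1.32 with SAP libraries 1 and 2 alone. This division of the SAP group was taken from earlier results of these data.

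Nr3c2, the receptor itself, split the SAP group. It stood at 1.53, 1.35 and 1.90 FPKM in control, 4.76, 4.42, 1.65 and 1.36 in SAP, and 1.12, 0.83, 2.34 and 1.72 in JZL184 libraries. SAP libraries 1 and 2 lay above all other libraries, and SAP libraries 3 and 4 lay within the range of the control group. Mean FPKM was 1.67 ± 0.325 (SD, n = 2) in control rats, 3.05 ± 1.79 (SD, n = 4) in SAP rats and 1.50 ± 0.670 (SD, n = 4) in JZL184 rats. Its log2 fold change of 0.66 ± 0.53 (SE) for SAP against control was 1.18 with SAP libraries 1 and 2 alone and -0.21 with SAP libraries 3 and 4 alone. JZL184 against SAP, at -0.83 ± 0.44, likewise went to -1.36 and to 0.03 with those pairs. With a correction for gene length within each library, SAP against control gave 0.24, and 0.37 with the replicate number also as a block. JZL184 against control was -0.20 ± 0.40, the 1 negative value among the 8 genes in that comparison.

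Sgk1, the steroid-induced kinase, was highest in the JZL184 group. It was measured at 9.75, 9.86 and 19.51 FPKM in control, 21.68, 47.86, 17.72 and 26.50 in SAP, and 57.28, 67.11, 35.03 and 119.98 in JZL184 libraries. Every JZL184 library lay above every control library, SAP library 3 lay below control library 3, and SAP library 2 lay above JZL184 library 3. Mean FPKM was 14.7 ± 6.86 (SD, n = 2) in control rats, 28.4 ± 13.4 (SD, n = 4) in SAP rats and 69.9 ± 36.0 (SD, n = 4) in JZL184 rats. The log2 fold change was 0.79 ± 0.46 (SE) for SAP against control, 1.50 ± 0.44 for JZL184 against SAP and 2.26 ± 0.57 for JZL184 against control. SAP against control ranged from 0.43, without the sample of control libraries 1 and 2, to 1.28, without control library 3, the control library with the higher Sgk1. Without SAP library 2, SAP against control was 0.49 and JZL184 against SAP was 1.81. JZL184 against SAP stayed between 1.10, without JZL184 library 4, and 1.96, with JZL184 libraries 2 and 4 alone, over 21 alternatives.

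Nedd4l, the ligase that removes the channel from the membrane, had its narrowest spread in control rats. Its FPKM was 2.10, 2.10 and 2.21 in control, 8.09, 6.62, 2.87 and 2.84 in SAP, and 3.38, 3.45, 4.87 and 5.79 in JZL184 libraries. All SAP and JZL184 libraries lay above all control libraries, and SAP libraries 1 and 2 lay above the whole JZL184 group while SAP libraries 3 and 4 lay below it. Mean FPKM was 2.16 ± 0.0778 (SD, n = 2) in control rats, 5.11 ± 2.67 (SD, n = 4) in SAP rats and 4.37 ± 1.17 (SD, n = 4) in JZL184 rats. The log2 fold change was 1.04 ± 0.47 (SE) for SAP against control, and 1.48 and 0.34 with SAP libraries 1 and 2 alone and 3 and 4 alone. A correction for gene length within each library (offsets) gave 0.42 for SAP against control, with or without the replicate number as a block. For JZL184 against control it was 0.99 ± 0.32, and 0.63 with the length offsets or 0.41 with both. JZL184 against SAP was -0.02 ± 0.35, and kept its sign in 9 of 21 alternatives.

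Atp1b1, the beta subunit that brings the sodium pump to the membrane, had the highest level per length of the 8 genes. It stood at 100.3, 102.4 and 134.1 FPKM in control, 278.0, 240.2, 109.4 and 110.7 in SAP, and 167.5, 135.6, 251.3 and 262.6 in JZL184 libraries. The JZL184 libraries all lay above the control libraries, by a narrow margin for library 2, whereas SAP libraries 3 and 4 lay within the control range. Mean FPKM was 118 ± 23.1 (SD, n = 2) in control rats, 185 ± 87.4 (SD, n = 4) in SAP rats and 204 ± 62.4 (SD, n = 4) in JZL184 rats. The log2 fold change was 0.45 ± 0.43 (SE) for SAP against control, and it went to 0.85 and -0.15 with SAP libraries 1 and 2 alone and 3 and 4 alone. For JZL184 against SAP it was 0.34 ± 0.35, and for JZL184 against control 0.76 ± 0.35.

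**Figure D2:**
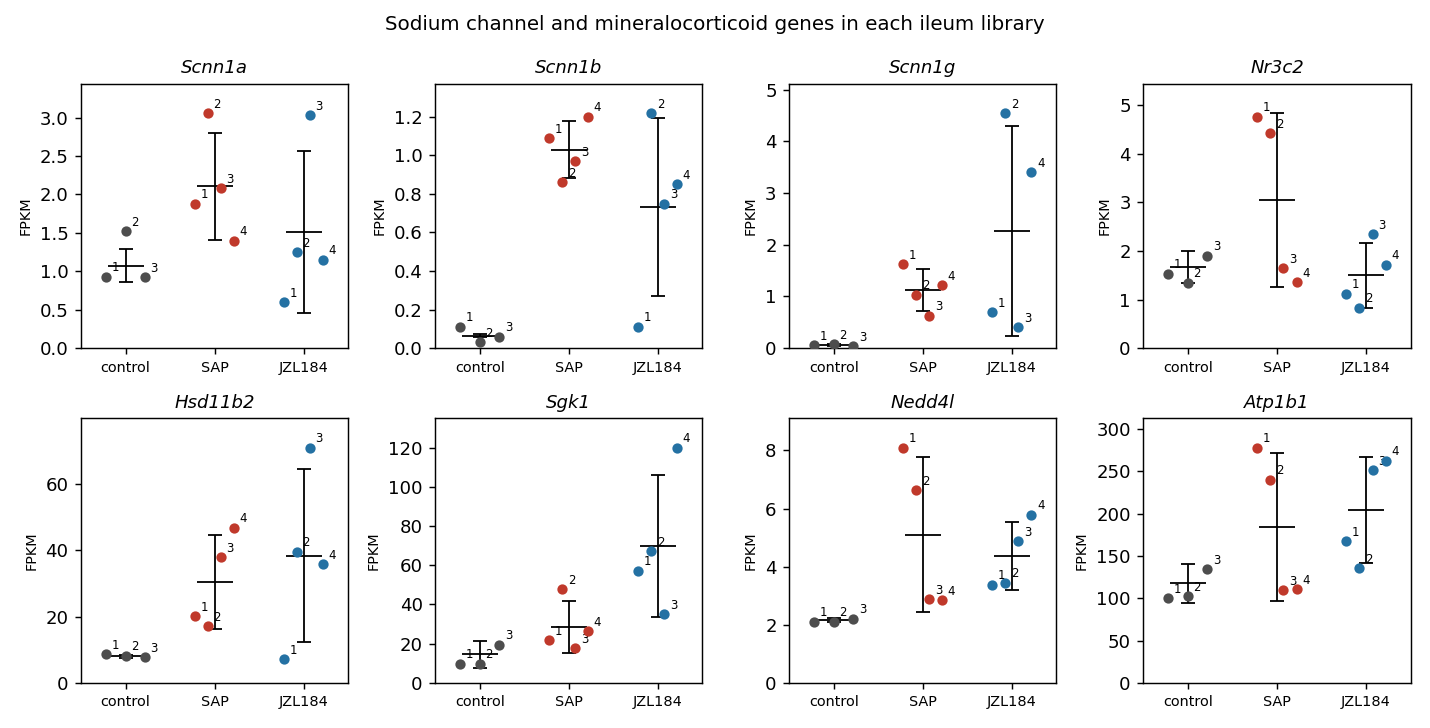
FPKM (vertical axes, each from 0) of the 8 genes in each library, by group, with replicate numbers beside the points. Horizontal bars are group means and error bars are SDs, with control libraries 1 and 2 averaged to 1 sample. SAP libraries 1 and 2 stand above SAP libraries 3 and 4 for Nr3c2, Nedd4l and Atp1b1, and below them for Hsd11b2.

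Within the SAP group the genes thus fell into different patterns. Nr3c2, Nedd4l and Atp1b1 were highest in SAP libraries 1 and 2, Hsd11b2 in SAP libraries 3 and 4, and Scnn1b had similar FPKM in all 4, with an SD of 14.3% of its mean. In JZL184 rats the SD was 89.7% of the mean for Scnn1g and 26.7% for Nedd4l, the widest and the narrowest of the 8 genes in that group. Over all libraries Scnn1g ranged from 0.04 to 4.55 FPKM and Atp1b1 from 100.3 to 278.0 FPKM.

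Ordered by mean FPKM over the 10 samples, the genes were Atp1b1 (179), Sgk1 (42.2), Hsd11b2 (29.2), Nedd4l (4.22), Nr3c2 (2.15), Scnn1a (1.66), Scnn1g (1.37) and Scnn1b (0.718). Atp1b1 was above Sgk1, Hsd11b2 above Nedd4l and Nedd4l above Nr3c2 in 11 of 11 libraries. The other neighbours changed places between libraries. Sgk1 was above Hsd11b2 in 8 libraries, Nr3c2 above Scnn1a in 6, Scnn1a above Scnn1g in 8 and Scnn1g above Scnn1b in 7. The pump and the kinase thus stood far above the channel subunits in FPKM in every group.

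In the comparison of SAP with control, all 8 log2 fold changes were above 0, with a median of 0.92, where the median of all genes tested was 0.06. For 2 of them, Nr3c2 and Atp1b1, the sign depended on the SAP libraries used, as given above. A gene was called if its Benjamini-Hochberg adjusted p was below 0.05 and its levels differed more than 2-fold. With edgeR's quasi-likelihood test this held for 0 of the 8 genes and for 0 of 16029 genes (0%). An unadjusted p below 0.05 was reached by 3 of the 8 genes and by 9.09% of all genes. DESeq2 called 2 of the 8 (Scnn1b and Scnn1g, both higher) and 1.23% of all genes, 0.861% as higher. The FPKM ranges of the groups did not overlap for 4 of the 8 (Scnn1b, Scnn1g, Hsd11b2 and Nedd4l, all higher in SAP), against 11.8% of all genes tested that were higher and 7.69% that were lower.

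For JZL184 against SAP, 4 of the 8 genes had a log2 fold change above 0 and 4 below, with a median of 0.16 against -0.05 over all genes. EdgeR called 0 of the 8 and 0% of 15308 genes, and an unadjusted p below 0.05 was reached by 1 of the 8 and by 21.3% of all genes. DESeq2 called 1 of the 8 (Sgk1, higher), against 6.98% of all genes, 3.57% as higher. For 0 of the 8 genes were the FPKM ranges of these groups apart, against 4.7% of all genes that were higher and 6.53% that were lower in JZL184. JZL184 library 1 was at the control level for Scnn1b and Hsd11b2, and the other 3 JZL184 libraries stood above the control range for both.

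In the third comparison, JZL184 against control, 7 of the 8 log2 fold changes were above 0, with a median of 1.60 against 0.08 over all genes. EdgeR called 0 of the 8, against 2.16% of 15916 genes, 1.02% as higher. An unadjusted p below 0.05 was reached by 5 of the 8 and by 26.3% of all genes. DESeq2 called 4 of the 8 (Scnn1b, Scnn1g, Sgk1 and Hsd11b2, all higher), against 10.8% of all genes, 5.81% as higher and 4.99% as lower. Scnn1g, Sgk1, Nedd4l and Atp1b1, 4 of the 8, had all JZL184 libraries above all control libraries in FPKM, against 17.3% of all genes. Without JZL184 library 1 edgeR called 5 of the 8 (Scnn1b, Scnn1g, Sgk1, Hsd11b2 and Nedd4l) in this comparison, while the count over all genes went from 343 to 1867. The 3 comparisons share libraries pairwise, so their values are not independent of each other.

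**Figure D3:**
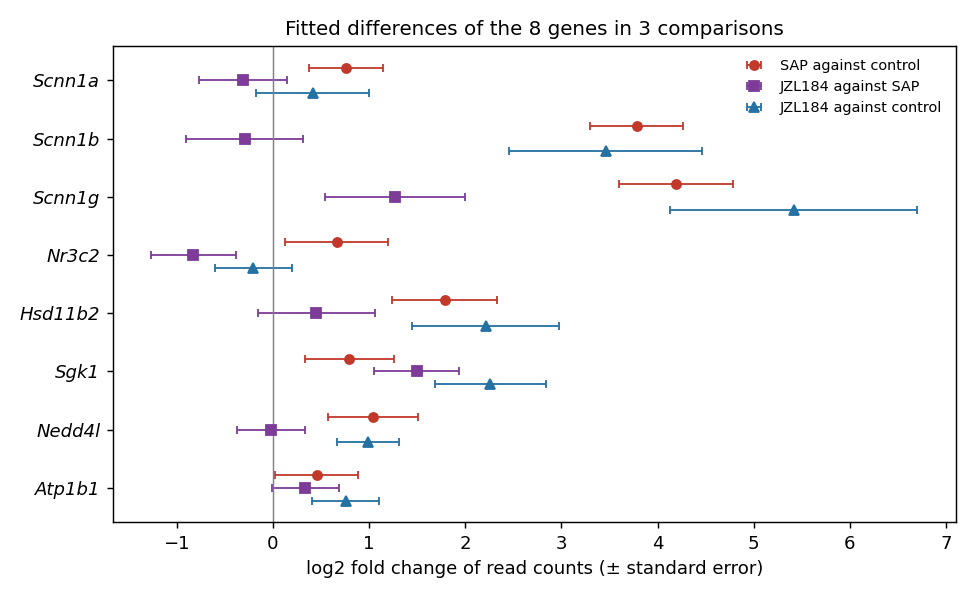
Fitted log2 fold change of the read counts (horizontal axis) of the 8 genes (vertical axis) in the 3 comparisons, with bars of 1 standard error on each side. This standard error was derived from the test statistic. Scnn1b and Scnn1g stand at 3.46 to 5.42 in both comparisons with control, while the values for JZL184 against SAP lie between -0.83 and 1.50.

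Beyond the 8 genes, 71 of 73 listed genes of sodium transport and steroid action were in the files. For SAP against control, edgeR called 0 of the 62 tested, with a median log2 fold change of 0.04 (all genes 0.06). By sublist the median was -0.27 for 8 channel proteases and inhibitors, 0.24 for 18 channel regulators and steroid targets, 0.46 for 11 genes of steroid receptors and metabolism, -0.29 for 10 sodium pump genes and -0.07 for 15 other transporters. The genes with the smallest p of each sublist had adjusted p from 0.459 to 0.538 with edgeR's quasi-likelihood test. Slc9a3, the sodium-hydrogen exchanger NHE3 of the gut lumen, had a log2 fold change of 4.12 ± 1.25 (SE) and was the 1 listed gene that DESeq2 called (1.23% of all genes). Its value for SAP against control was 4.94 with SAP libraries 1 and 2 alone, 1.91 with SAP libraries 3 and 4 alone, 3.48 without the sample of control libraries 1 and 2, and 5.22 without control library 3. Its FPKM was 0.10, 0.15 and 0.47 in control, 11.53, 9.90, 1.04 and 1.21 in SAP, and 7.98, 1.62, 18.69 and 5.47 in JZL184 libraries. The others were Kcnn4 (-1.32), Fxyd2 (-0.78), Atp1b2 (1.14), Fkbp5 (1.12), Hsd11b1 (0.98), Pdpk1 (1.34), Usp2 (-1.22), St14 (-0.97) and Prss8 (-0.73), given as log2 fold changes.

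In the comparison of JZL184 with SAP, 0 of the 61 tested genes were called by edgeR and 6 by DESeq2, all higher (3.57% of all genes), and the median was 0.04 (all genes -0.05). Sublist medians were 0.24, -0.10, -0.09, 0.04 and 0.11 for proteases, regulators, steroid genes, pump genes and other transporters. Per1 and Tsc22d3, both known steroid-induced genes, had log2 fold changes of 1.77 ± 0.36 (SE) and 1.33 ± 0.42, and Fkbp5, a steroid-induced partner of steroid receptors, 1.35 ± 0.29. All JZL184 libraries lay above all SAP libraries for these 3 genes, as they did for Atp1b3 (0.90) and the sodium chloride cotransporter Slc12a3 (1.51), the latter at 0.47 FPKM or less throughout. H6pd (1.35), Kcne3 (1.34), Tmprss4 (0.81), Fxyd2 (-1.53) and Prss8 (-0.69) overlapped. Adjusted p of these 10 genes ran from 0.0851 to 0.257 with edgeR's quasi-likelihood test. The 6 genes called by DESeq2 were Per1, Tsc22d3, Fkbp5, H6pd, Slc12a3 and Kcne3.

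For JZL184 against control, edgeR called 1 of the 62 tested genes as higher and 3 as lower, and DESeq2 8 and 4. Over all genes edgeR called 1.02% as higher and 1.14% as lower, and DESeq2 5.81% and 4.99%. The median was 0.13 (all genes 0.08). Sublist medians, in the same order, were 0.06, 0.12, 0.58, 0.09 and 0.30. Fkbp5 rose by 2.45 ± 0.31 (SE) on the log2 scale (adjusted p = 0.0156, edgeR's quasi-likelihood test with Benjamini-Hochberg adjustment), from 11.06, 10.33 and 13.13 FPKM in control to 61.46, 63.51, 62.90 and 76.05 in JZL184 libraries. In SAP libraries it stood between, at 33.62, 36.78, 15.88 and 30.62 FPKM. Fkbp4, a cochaperone of steroid receptors, fell, with a log2 fold change of -1.45 ± 0.27 (adjusted p = 0.0421, edgeR's quasi-likelihood test). Fxyd2, a regulator of the sodium pump, fell, with -2.32 ± 0.37 (adjusted p = 0.0266, edgeR), and the potassium channel gene Kcnn4 with -1.76 ± 0.31 (adjusted p = 0.0357, edgeR). Over 18 alternatives the adjusted p of the 4 genes ran from 1.0e-09 to 0.350, 0.00122 to 0.509, 2.1e-05 to 0.365 and 0.000343 to 0.483 in the order given, and they stayed called in 15, 14, 14 and 14 of these. The summed epithelial and ileal enterocyte markers were lower in all JZL184 than in all control libraries, as were Fkbp4, Fxyd2 and Kcnn4. Among these markers, however, Cdh1 was higher, Epcam, Fabp2, Slc10a2 and Slc51a overlapped, and Slc51b was highest in JZL184 library 4 (2643 FPKM). The part of the epithelium in these changes was not tested. Slc9a3 (4.76), Prss8 (-1.44), Per1 (1.57), Tmprss2 (1.20), Pdpk1 (1.10) and Atp1b3 (0.59) were not called by edgeR, with adjusted p from 0.0513 to 0.251 (edgeR's quasi-likelihood test). Of these, Slc9a3, Prss8, Per1 and Tmprss2 were among the genes that DESeq2 called, and Pdpk1 and Atp1b3 were not. Prss8 encodes a protease that activates the channel.

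The genes with the pattern most like that of Scnn1b, Sgk1 and Nr3c2 were sought over the 10 samples by the root mean squared difference of centred log2 CPM (reads scaled to library size), among 11038 genes (11037 for Sgk1 and Nr3c2) with a mean FPKM of at least 1. For Scnn1b they were Best2 (0.66), a chloride channel gene of goblet cells in the colon, Slc11a1 (0.79), Hsd11b2 (0.83), Cd163 (0.85) and Gpnmb (0.89), where the median of all genes was 1.63. Slc11a1, Cd163 and Gpnmb are known from macrophages. Best2 stood at 0.13, 0.13 and 0.27 FPKM in control, 2.76, 2.03, 5.42 and 8.49 in SAP, and 0.32, 5.72, 1.33 and 4.24 in JZL184 libraries, low in JZL184 library 1 like Scnn1b and Hsd11b2. Scnn1g, the neighbour on the chromosome, was at rank 34 for Scnn1b, and Scnn1a at rank 138. For Sgk1 the nearest were Cyp3a9 (0.37), Arl14 (0.40), Fkbp5 (0.46), LOC108349526 (0.46) and Clec14a (0.50), with a median of 1.17 over all genes. Cyp3a9, a steroid-metabolizing cytochrome, had its highest value in JZL184 library 4 at 230.5 FPKM, as Sgk1 did at 119.98. For Nr3c2 they were Vsig10 (0.19), Cnnm4 (0.20), Mxi1 (0.24), Fam149b1 (0.26) and Dync2i1 (0.26), with a median of 0.86, and all 5 had their highest FPKM in SAP libraries 1 and 2. The 10 points of each of these profiles share their libraries, and no test was made.

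**Figure D4:**
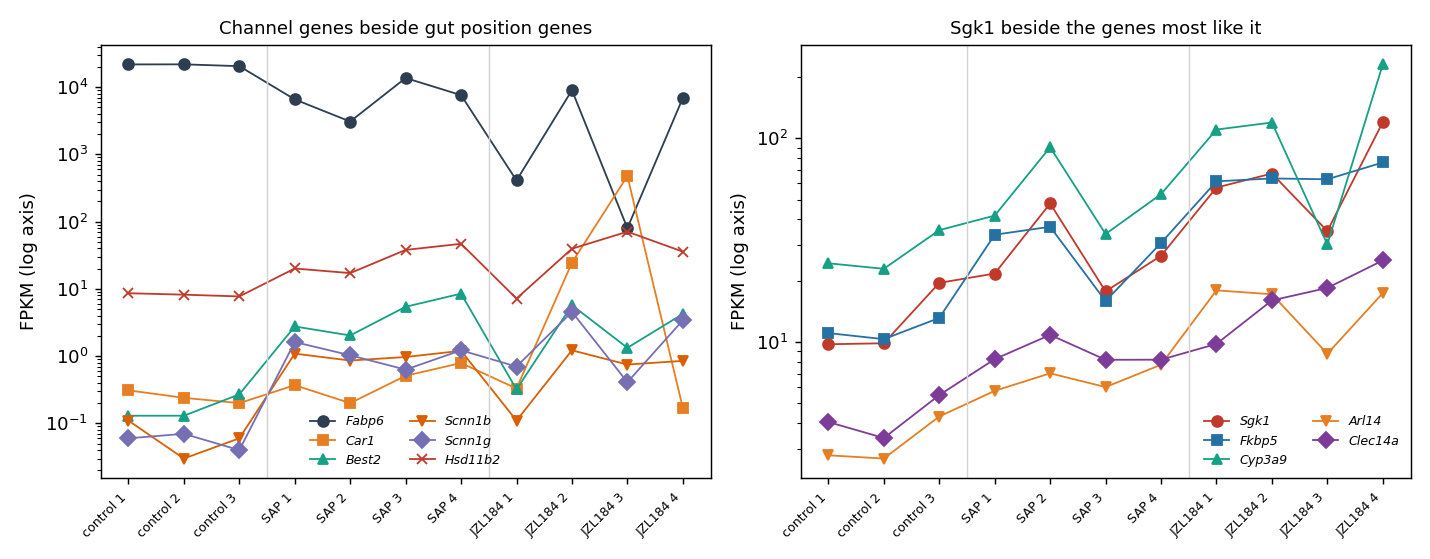
FPKM on log axes (vertical) in each of the 11 libraries (horizontal). The left panel shows Scnn1b, Scnn1g and Hsd11b2 with Best2, the ileal gene Fabp6 and Car1, and the right panel shows Sgk1 with 4 of the 5 genes most like it. Scnn1b, Best2 and Hsd11b2 dip together in JZL184 library 1, Fabp6 is lowest in JZL184 library 3 (79.9 FPKM) where Car1 is highest (478 FPKM), and Sgk1 peaks in JZL184 library 4 (119.98 FPKM).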

How the data were processed

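RNA of ileum tissue was extracted with TRIzol and made into stranded mRNA libraries. Per the study's methods the authors trimmed reads with FASTX-Toolkit, removed reads under 16 nt, aligned the rest to mRatBN7.2 with HISAT2 (at most 4 mismatches) and deposited a count of uniquely aligned reads for each of 24481 genes, without normalization. The authors also deposited FPKM to 2 decimals for 24205 genes, which scales for gene length and library size. Which tool counted the reads, and on which annotation, is not given in the sources used here. In addition, the submitters' processing notes name bcl2fastq and DESeq2.

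Samples were grouped by their titles and treatment labels. Read counts were compared with edgeR 4.0.16 (TMM, quasi-likelihood test, filterByExpr with a minimum count of 10) in R 4.3.3, fitted for each pair of groups over all genes. A gene was called if its adjusted p (Benjamini-Hochberg) was below 0.05 and its fold change lay above 2 or below 0.5, as in the study's methods, whose tool DESeq2 (1.42.0) was an alternative. The p-values measure the spread between these rats, except where control libraries 1 and 2 were taken as separate samples. Reads of control libraries 1 and 2 were summed and their FPKM averaged. The SE beside a fitted log2 fold change is the absolute log2 fold change divided by the square root of the quasi-likelihood F statistic. It thus restates that test. The 8 genes, the gene lists and the alternatives were chosen with earlier results of these data known. Named genes were the 8, listed pathway genes that were called or had one of the 2 smallest p of their sublist, and the 5 genes nearest to Scnn1b, Sgk1 and Nr3c2 (log2 CPM with prior count 2). Other alternatives were no fold change threshold, DESeq2's size factors, limma-voom of limma 3.58.1 with quality weights, gene length offsets (span 0.3), no filter, 10 reads in every library, FPKM means with 0.1 added, all 3 groups in 1 fit, control libraries 1 and 2 separate, a replicate block, 2 of the 4 SAP libraries alone, and each library left out in turn. The scripts were tested on simulated data. Plots were made with Python 3.11.15 and matplotlib 3.10.9. Between 26341299 and 33847135 reads per library left counting error small for most genes, but not for Scnn1b and Scnn1g, with fewer than 10 reads in each control library and, for Scnn1b, in JZL184 library 1.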

Additional observations from a re-analysis of the deposited data

Results flagged for a closer look

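In 54 groups of 4 libraries, of the 8 genes and the named pathway genes, the highest or lowest library was compared with the others by Dixon's criterion, which chance alone meets in about 1 of 20 groups, and 2 groups met it. Fkbp5 stood at 76.05 FPKM in JZL184 library 4, where the other JZL184 libraries lay between 61.46 and 63.51. Tmprss2, a serine protease of the epithelium, stood at 355.2 FPKM in SAP library 1, where the other SAP libraries lay between 125.5 and 163.7. None of the 8 genes met the criterion in the SAP or JZL184 group, and the control group was too small for it.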

How the results depend on the processing

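The 4 pathway genes called for JZL184 against control kept their direction in all 18 alternatives. The log2 fold changes of the 8 genes kept their sign in 439 of 459 alternative values, and the exceptions were Nedd4l, Scnn1b, Hsd11b2, Nr3c2 and Atp1b1 in JZL184 against SAP, Nr3c2 and Atp1b1 in SAP against control, and Scnn1a in JZL184 against control.

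Counts of calls depended strongly on the setting, and the cause was not tested. Some fits with control took control libraries 1 and 2 as separate samples, among them those with the replicate block. These fits count nearly identical libraries as replicates, so nothing is read from their counts. For SAP against control (0 genes called by edgeR), DESeq2 called 208 genes, limma-voom 14, no filter on low counts 14, all 3 groups in 1 fit 4, control libraries 1 and 2 as separate samples 33, SAP libraries 1 and 2 alone 5859 and SAP libraries 3 and 4 alone 74. Of the 8 genes (0), these called 2, 1, 2, 0, 2, 4 and 3, and of the listed pathway genes (0) DESeq2 called 1 and SAP libraries 1 and 2 alone called 21. For JZL184 against SAP (0 genes), DESeq2 called 1283 genes, limma-voom 699, gene length offsets 34, no filter 27, all 3 groups 207, SAP libraries 1 and 2 alone 2912 and JZL184 libraries 2 and 4 alone 7. Of the 8 genes, DESeq2, limma-voom and SAP libraries 1 and 2 alone called 1 each, the last Nr3c2 and the others Sgk1. Of the pathway genes, DESeq2 called 6, limma-voom 5, all 3 groups 2 and SAP libraries 1 and 2 alone 11. For JZL184 against control (343 genes), DESeq2 called 1899, limma-voom 2906, no filter 929, separate control libraries 2800 and JZL184 libraries 2 and 4 alone 2967. Of the 8 genes (0), these called 4, 5, 3, 4 and 5, and of the pathway genes (4) they called 12, 16, 7, 16 and 16. All 3 groups in 1 fit called 1 of the 8 (Scnn1g). The count over all genes in that fit is not given here, so nothing is read from this call.

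Leaving out 1 library at a time gave 0 to 3 genes for SAP against control (3 without SAP library 4), 0 to 655 for JZL184 against SAP (655 without JZL184 library 1) and 0 to 1867 for JZL184 against control (1867 without JZL184 library 1, 0 without the sample of control libraries 1 and 2). Of the 8 genes it gave 0 to 0, 0 to 0 and 0 to 5, and of the pathway genes 0 to 0, 0 to 5 and 0 to 13. With 1 control sample left, that sample is assumed to vary like the other group.

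No pairing by replicate number was seen. Deviations of same-numbered samples correlated at -0.30 to -0.15 for SAP against control, -0.45 to 0.12 for JZL184 against SAP and -0.10 to 0.11 for JZL184 against control. Differently numbered samples had -0.19 to 0.25, -0.35 to 0.41 and -0.18 to 0.14 in the same order. So few pairs cannot exclude a pairing. With the replicate block and separate control libraries, 1 gene was called for SAP against control, and for JZL184 against control 1488 genes, 2 of the 8 (Scnn1g and Sgk1) and 10 pathway genes. For JZL184 against SAP the replicate block called 0 genes. With the replicate block, separate control libraries and gene length offsets, 2 genes were called for SAP against control. For JZL184 against control these settings called 1233 genes, 2 of the 8 and 8 pathway genes.

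Depth limits Scnn1b and Scnn1g, which with 2 to 8 reads per control library could not be fitted with control at 10 reads in every library. With FPKM means and 0.1 added, SAP against control was 2.78 for Scnn1b and 3.01 for Scnn1g, and JZL184 against control 2.33 and 3.96.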
